A study of Mus musculus with 24 samples.

Results

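Genes of phase II conjugation and of the NRF2 stress response were followed through ureteric obstruction and its reversal in mouse kidney. Members were the protein-coding genes of the deposited table whose symbol belongs to the families below or was named singly. The families were the glutathione S-transferases (Gst classes a, k, m, o, p, t and z), the UDP-glucuronosyltransferases with their Ugt3a relatives (Ugt families 1 to 3) and the sulfotransferases (Sult). Those named singly were Nfe2l2, Keap1, Hmox1, Srxn1, Nqo1, Txnrd1, Gclc, Gclm and Slc7a11. Of 14785 genes in the table, 48 met this rule: 20 Gst, 13 Ugt and 7 Sult genes, 2 regulators, 4 NRF2 target genes and 2 genes of glutathione synthesis. The annotation used here holds 73 protein-coding genes with such names. The other 25, among them Slc7a11, Gstm3, 8 Ugt and 14 Sult genes, have no row and were not analysed here.

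Kidney RNA came from male C57/BL6 mice labelled as 8 weeks old, their age at the start of the experiment by the design text, 4 animals in each of 6 groups with no other genotype, allele or drug named. The sham group had sham surgery, UUO2 and UUO7 had 1 ureter ligated for 2 and 7 days, and R1W, R2W and R4W had 7 days of ligation followed by reimplantation of the ureter and 1, 2 or 4 weeks of recovery. The series title calls the tissue cortical, the labels call it kidney, and the 4 animals sequenced per group were selected from a larger group by a criterion that the sources used here do not give. Libraries were made by polyA selection, and each holds the RNA of all cells of the sample, so fewer cells of a type and less RNA per cell cannot be told apart.

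Phase II enzymes attach a polar group to drugs, hormones and reactive products of oxidation so that they can be excreted, and the proximal tubule of the kidney is a main site of this work. Glutathione S-transferases use the tripeptide glutathione, UDP-glucuronosyltransferases use UDP-glucuronic acid, and sulfotransferases use the sulfate donor PAPS. NRF2, the product of Nfe2l2, is held in the cytoplasm and marked for degradation by KEAP1. When KEAP1 is modified by oxidants or electrophiles, NRF2 enters the nucleus and binds the antioxidant response element with a small MAF partner, so its activity is set largely at the protein level.

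The core letters of that element, TGACNNNGC on either strand, were searched in windows from 250 bases before to 50 bases after each annotated start in RefSeq (GRCm38.p6). They are shown because the element defines the NRF2 targets, here with the core in capitals, written 5′ to 3′ on the strand of the gene. The printed stretches of these windows lie at chr2:75704880-75704913 (minus strand) for Nfe2l2, chr3:122245408-122245446 (plus) for Gclm, chr10:82859099-82859137 (plus) for Txnrd1, chr1:21240449-21240487 (plus) for Gsta3 and chr3:107895797-107895835 (plus) for Gstm5.
Nfe2l2: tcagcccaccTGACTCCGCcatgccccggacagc
Gclm: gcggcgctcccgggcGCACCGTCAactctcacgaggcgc
Txnrd1: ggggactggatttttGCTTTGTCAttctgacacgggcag
Gsta3: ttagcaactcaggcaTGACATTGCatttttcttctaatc
Gstm5: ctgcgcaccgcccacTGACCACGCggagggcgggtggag
A window was given for 41 of the 48 members, and 7 of these 41 held the core (17.1%), beside 14.0% of 27025 genes. The other two are Gstm7 and Srxn1, whose match lies after its start, at bases 28 to 36. The share is close to that of all genes, and a match of these few letters is a description of the window and not a binding site.

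A second set of letters, the HNF1 motif, is that of a transcription factor of proximal tubule and liver, and is shown because many conjugation enzymes are made in those tissues. It was present in either orientation in 4 of the 41 members (9.76%) and in 0.470% of 27025 genes. The matches, in capitals, lie at chr5:87569061-87569100 (minus strand) for Sult1d1, chr1:88211899-88211938 (plus) for Ugt1a1, chr1:88070669-88070708 (plus) for Ugt1a9 and chr1:88055321-88055360 (plus) for Ugt1a10.
Sult1d1: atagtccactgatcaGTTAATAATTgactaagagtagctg
Ugt1a1: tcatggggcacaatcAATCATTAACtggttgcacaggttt
Ugt1a9: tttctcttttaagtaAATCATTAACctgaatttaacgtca
Ugt1a10: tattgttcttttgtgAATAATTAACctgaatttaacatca
Ugt1a1, Ugt1a9 and Ugt1a10 are first exons of 1 locus, so these 3 matches are not independent of each other. The share of members therefore rests on few loci and was not tested. A match of these letters is a description of the window and not a binding site.

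Values are FPKM, fragment counts scaled to transcript length and library size, a unit inferred from the numbers since no source used here states it. Steps in the low values implied 24900000 to 35320000 fragments in the 20 libraries outside UUO2 and 73360000 to 109340000 in UUO2. The UUO2 libraries carry another style of sample name, the design text speaks of 20 libraries multiplexed together, and mt-Rnr1 lay at 2343 to 2832 FPKM in UUO2 and at 342 to 709 FPKM elsewhere. This difference coincides with the group, so for UUO2 a batch effect and the effect of the group cannot be told apart in any comparison. R4W replicate 2 is titled as 4 weeks of recovery and labelled as 2 under treatment, and the title was followed. Without it, 25 members were called in R4W against sham, 27 against UUO7 and 8 against R1W, in place of 28, 31 and 12, and among members given in full the calls lost against sham were those of Ugt1a6a and Ugt1a6b.

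Genes were tested with limma on log2(FPKM + 1) over all 14785 genes, and a gene was called higher or lower at a Benjamini-Hochberg adjusted p under 0.05. A log2 difference below is on that scale, which understates the change of genes near 1 FPKM, and its SE is the moderated standard error. Nothing in the labels ties animals to litters or days, so the animals were treated as independent, which the labels cannot show. Each p-value sets a difference against 1 spread estimated over all 6 groups and moderated across genes. The spread of a group thus also enters comparisons without it. FPKM is relative to the whole library, and the median gene stood 0.42 above sham in UUO7 in log2 units. Each comparison was therefore repeated after dividing every library by a size factor, its median ratio to each gene's geometric mean, which brought that median to 0.01; these are the rescaled values below. Where 4 values of a group are listed they stand in the order of replicates 1 to 4.

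**Figure D1:**
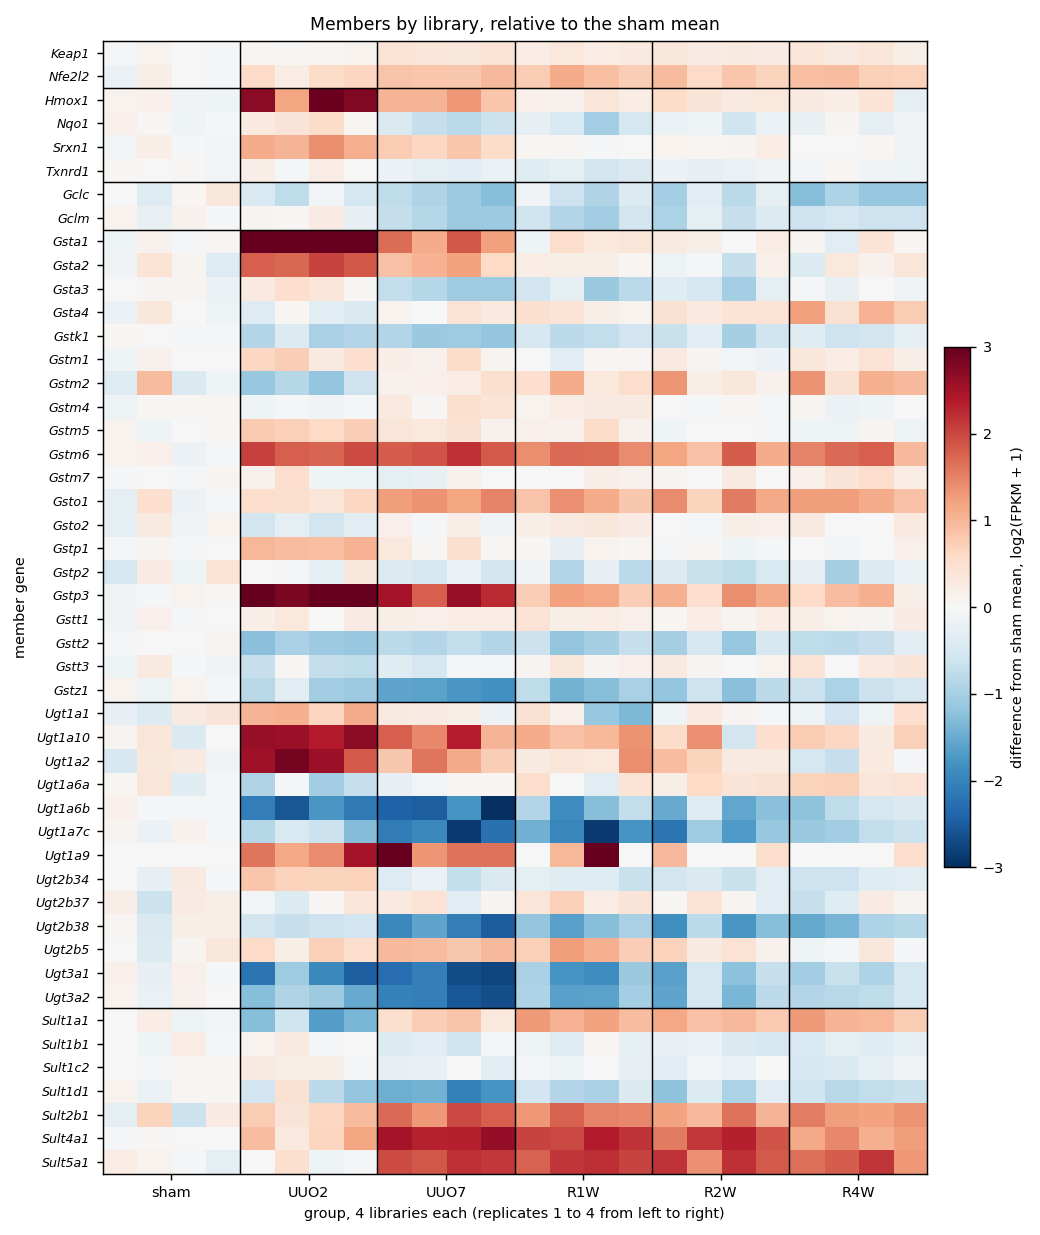
Difference of each library from the sham mean in log2(FPKM + 1), for the 48 members (vertical axis, ordered by family) in the 24 libraries (horizontal axis, ordered by group), with colours from -3 (lower) to 3 (higher). Members of the same family appear in both colours.

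The members moved in both directions at every stage. In UUO2 against sham, 19 of the 48 members were higher and 13 lower, beside 32.3% and 17.0% of all genes. In UUO7 against sham, 21 members were higher and 16 lower, beside 60.1% and 17.8% of all genes. After rescaling the UUO7 split was 15 higher and 23 lower, with 36.5% of all genes called higher and 36.5% lower. The median member differed from sham by 0.16 and the median of all genes by 0.42. Members called lower thus made up 33.3% of the group, more than the background share of 17.8%, and members called higher 43.8%, less than 60.1%.

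Recovery groups kept members on both sides of sham. In R1W against sham, 15 members were higher and 16 lower, beside 59.4% and 14.7% of all genes, and 10 and 25 after rescaling, beside 33.7% and 34.6%. R2W gave 11 higher and 16 lower (all genes 56.1% and 12.9%), and 8 and 25 after rescaling (31.1% and 32.5%). R4W gave 14 higher and 14 lower (54.8% and 11.6%), and 9 and 22 after rescaling (28.9% and 31.1%). The 3 recovery groups share the sham animals as their control, so these counts are not independent of each other.

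Comparisons that do not use sham gave the movement itself. From 2 to 7 days of obstruction, 13 members were higher and 24 lower in UUO7, beside 52.0% and 14.7% of all genes, and 7 and 29 after rescaling, beside 30.0% and 31.9%. In R1W against UUO7, 8 members were higher and 5 lower, beside 6.47% and 8.04% of all genes. In R4W against UUO7, 17 were higher and 14 lower, beside 17.6% and 30.8%. In R4W against R1W, 6 were higher and 6 lower, beside 5.06% and 14.1%, and after rescaling 6 and 2, beside 8.67% and 8.60%. The R1W against UUO7 count of 13 fell to 7 without R1W 1 or UUO7 3, to 6 without R1W 4 and to 8 without UUO7 4. The count of 12 in R4W against R1W fell to 4 without R1W 3 and to 7 without R4W 1 or R1W 4.

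**Figure D2:**
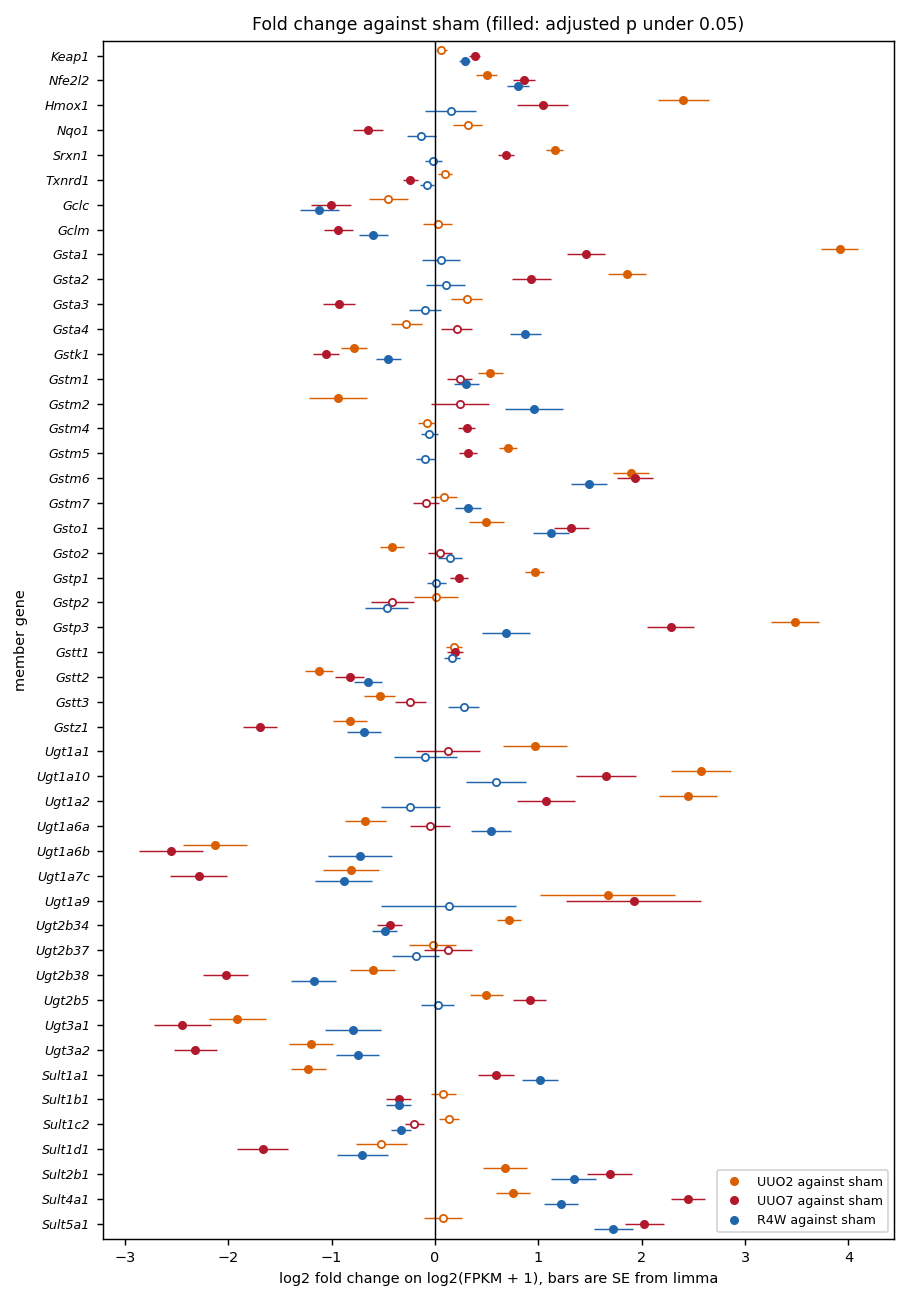
Log2 difference from sham on the log2(FPKM + 1) scale (horizontal axis) with its standard error for the 48 members (vertical axis) in UUO2, UUO7 and R4W, where filled points were called at an adjusted p under 0.05. Gsta1 and Gstp3 lie farthest to the right in UUO2 at 3.91 and 3.48, and Ugt1a6b and Ugt3a1 farthest to the left in UUO7 at -2.56 and -2.45.

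The 2 regulators were examined first. Nfe2l2, which encodes NRF2 (chr2:75675513-75704641, minus strand, mm10), measured 27.6, 35.8, 31.5 and 30.6 FPKM in sham and 47.2, 36.9, 46.1 and 49.4 FPKM in UUO2. In UUO7 it measured 57.0, 56.0, 55.8 and 62.1 FPKM. The groups did not overlap, although the lowest UUO2 library, replicate 2, lay just above the highest sham library, also a replicate 2. Nfe2l2 rose by 0.50 (SE 0.10, limma adjusted p = 0.000469) in UUO2 and by 0.86 (SE 0.10, limma adjusted p = 1.94e-07) in UUO7. It was still at 55.3 ± 4.86 FPKM (SD, n = 4) in R4W, 0.80 above sham, and differed from UUO7 by only -0.06 there (limma adjusted p = 0.643). Rescaling lowered the UUO7 and R4W differences to 0.39 and 0.43, both still called.

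Keap1, the adaptor that directs NRF2 to ubiquitination (chr9:21229730-21239361, minus strand), had a direction that depended on the scaling. It measured 17.4, 19.5, 17.7 and 17.4 FPKM in sham, 18.7, 18.3, 18.8 and 19.3 in UUO2 and 24.0, 23.3, 22.9 and 24.8 in UUO7. UUO2 lay within the sham range and all UUO7 libraries lay above it. The UUO7 difference from sham was 0.38 (SE 0.05, limma adjusted p = 1.09e-06) as deposited and -0.08 (adjusted p = 0.115) after rescaling. In R1W it was 0.26 as deposited and -0.17 rescaled, called in opposite directions.

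**Figure D3:**
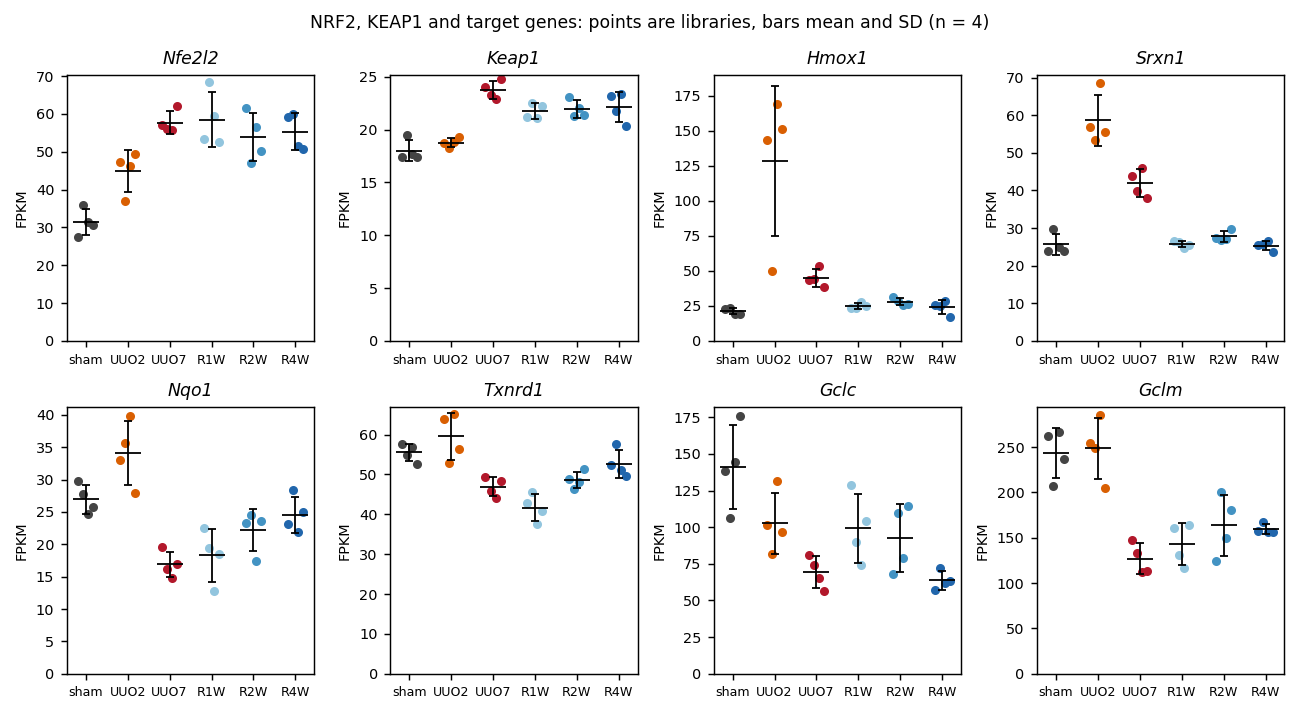
FPKM (vertical axis, linear from 0) of the regulators Nfe2l2 and Keap1, the NRF2 targets Hmox1, Srxn1, Nqo1 and Txnrd1 and the glutathione synthesis genes Gclc and Gclm in the 6 groups, with points for libraries and bars for mean and SD (n = 4). Hmox1 and Srxn1 are highest in UUO2, at means of 129 and 58.6 FPKM, and lower in all later groups, while Gclc stays at 63.7 FPKM in R4W against 141 in sham.

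The 4 NRF2 target genes did not move together. Hmox1 encodes heme oxygenase, which degrades heme (chr8:75093621-75100589, plus strand), and measured 22.8, 23.7, 19.5 and 19.3 FPKM in sham. In UUO2 it measured 144, 49.9, 169 and 152 FPKM, and in UUO7 43.9, 44.1, 53.8 and 38.7. Replicate 2 was the lowest of UUO2 by a wide margin and lay within the UUO7 range, but all 8 obstructed libraries lay above sham. Hmox1 rose by 2.40 (SE 0.25, limma adjusted p = 1.61e-07) in UUO2, or by 2.80 without UUO2 replicate 2, and by 1.04 (limma adjusted p = 0.000657) in UUO7. In R1W it was at 23.6, 23.4, 27.7 and 24.8 FPKM, below every UUO7 library, a fall by 0.83 (limma adjusted p = 0.0289). That call was lost without R1W 1, 2 or 4 or without UUO7 1 or 3, with adjusted p-values of 0.0667, 0.0541, 0.065, 0.0591 and 0.0864. The spread used for this test includes UUO2, where the Hmox1 SD was 53.5 FPKM. The authors' deposited table gives this fall as -0.84, with an adjusted p of 6.79e-08 there. In R2W, Hmox1 was 0.38 above sham and not called (limma adjusted p = 0.174). It was called there in a fit without UUO2 (0.0126) and with the 2 groups alone (0.00546).

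Srxn1 encodes sulfiredoxin, which reactivates oxidised peroxiredoxins (chr2:152105516-152111376, plus strand), and followed the same course with less spread. Sham libraries measured 24.0, 29.7, 25.0 and 24.0 FPKM, UUO2 libraries 56.9, 53.3, 68.5 and 55.6, and UUO7 libraries 43.9, 39.8, 46.0 and 37.9. The 3 groups were fully separate. Srxn1 rose by 1.16 (SE 0.08, limma adjusted p = 5.74e-10) in UUO2 and by 0.68 (limma adjusted p = 1.15e-07) in UUO7, and in R1W it had fallen by 0.68 relative to UUO7 (limma adjusted p = 3.91e-05). R1W, at 25.8 ± 0.845 FPKM (SD, n = 4), overlapped sham, at 25.7 ± 2.74. After rescaling, however, R1W lay 0.42 below sham (adjusted p = 0.000103).

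Nqo1 encodes a quinone reductase that is often used as a readout of NRF2 (chr8:107388225-107403206, minus strand). It measured 29.8, 27.7, 24.7 and 25.7 FPKM in sham and 33.0, 35.6, 39.8 and 27.9 in UUO2, a difference of 0.32 (SE 0.14) that was not called (limma adjusted p = 0.0662). It was called with a replicate block (0.0422), with the 2 groups alone (0.0418), with a pseudocount of 10 (0.0481) and without UUO2 replicate 4 (0.03). In UUO7 it measured 19.6, 16.2, 14.9 and 16.9 FPKM. Every UUO7 library lay below every sham and UUO2 library, and Nqo1 fell by 0.65 from sham (limma adjusted p = 0.000277) and by 0.97 from UUO2 (limma adjusted p = 4.82e-06). In R4W it was at 24.6 ± 2.80 FPKM (SD, n = 4), 0.52 above UUO7 (limma adjusted p = 0.0051). Against sham the R4W difference was -0.13 as deposited (adjusted p = 0.411) and -0.50 after rescaling, where it was called.

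Txnrd1, the cytosolic thioredoxin reductase (chr10:82833951-82897712, plus strand), whose window carries the core shown above, was at 55.5 ± 2.18 FPKM in sham, 59.6 ± 5.86 in UUO2, 46.9 ± 2.44 in UUO7, 41.6 ± 3.36 in R1W and 52.7 ± 3.57 in R4W (SD, n = 4 each). The UUO7 and R1W libraries did not overlap sham. Txnrd1 fell by 0.24 in UUO7 (limma adjusted p = 0.0043) and by 0.41 in R1W (limma adjusted p = 2.85e-05), and rose by 0.33 from R1W to R4W (limma adjusted p = 0.00629).

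Gclc and Gclm were both lower than sham in UUO7 and in each recovery group. Gclc, the catalytic subunit of glutamate-cysteine ligase and the rate-limiting enzyme of glutathione synthesis (chr9:77754535-77794485, plus strand), measured 139, 106, 145 and 176 FPKM in sham and 101, 81.6, 131 and 96.7 FPKM in UUO2. These overlapped, and the UUO2 difference of -0.45 was not called as deposited (limma adjusted p = 0.0527) but was after rescaling (-0.59, adjusted p = 0.0272), without UUO2 replicate 3 (0.0223) and without sham replicate 2 (0.0181). Gclc measured 81.3, 74.2, 65.0 and 56.7 FPKM in UUO7 and 57.1, 72.5, 62.2 and 63.1 FPKM in R4W. Neither group overlapped sham. Gclc fell by 1.01 (SE 0.19, limma adjusted p = 5.90e-05) in UUO7 and by 1.12 (limma adjusted p = 3.75e-05) in R4W. Between them, R1W was at 99.2 ± 23.5 FPKM (SD, n = 4) and overlapped sham, 0.51 below it (limma adjusted p = 0.0194; 0.0842 without R1W 3 and 0.0785 without sham 4). R4W lay 0.61 below R1W (limma adjusted p = 0.0318). This last call was lost without R1W 1 or 4 or without R4W 1, 3 or 4, with adjusted p-values of 0.082, 0.0664, 0.0819, 0.0611 and 0.0676, and after rescaling (0.0839).

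Gclm, the modifier subunit of the same ligase (chr3:122245557-122270732, plus strand), measured 262, 207, 267 and 237 FPKM in sham and 255, 249, 285 and 204 FPKM in UUO2. The 2 groups overlapped, with a difference of 0.03 (limma adjusted p = 0.89). UUO7 libraries measured 148, 133, 112 and 113 FPKM and R4W libraries 157, 168, 157 and 157 FPKM, all below sham. Gclm fell by 0.94 (SE 0.14, limma adjusted p = 3.19e-06) in UUO7 and by 0.60 (limma adjusted p = 0.000855) in R4W. Of the 7 members with the NRF2 core letters, Gclm, Txnrd1 and Gsta3 were lower than sham in UUO7 and Nfe2l2 and Srxn1 higher on both scales, while Gstm5 (0.32 as deposited, -0.17 rescaled) and Gstm7 (-0.09 and -0.50) depended on the scale. Of all genes, 60.1% were called higher and 17.8% lower in UUO7 as deposited, and 36.5% each way after rescaling.

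Other genes of the NRF2 and KEAP1 pathway were taken from a list of 31, of which 30 have a row. In UUO2 against sham, 16 were higher and 4 lower (32.3% and 17.0% of all genes), with a median of 0.33 beside 0.09 over all genes. Fth1, the ferritin heavy chain that stores iron, rose from 4965 ± 221 to 13173 ± 1464 FPKM (SD, n = 4), Pgd of the pentose phosphate pathway from 54.7 ± 4.94 to 113 ± 22.3, and the carbonyl reductase Cbr1 from 37.2 ± 4.88 to 85.8 ± 16.6. In UUO7 the list gave 17 higher and 8 lower as deposited (60.1% and 17.8% of all genes) and 5 higher and 12 lower after rescaling (36.5% each way), so its balance depended on the scale. Among those higher on both scales, Maff, a small MAF protein, went from 1.31 ± 0.601 to 17.5 ± 1.03 FPKM, and the conjugate exporter Abcc3 from 0.910 ± 0.703 to 11.1 ± 1.71. Among those lower on both scales, the malic enzyme Me1 fell from 219 ± 16.3 to 71.2 ± 6.14 FPKM, and the apical conjugate exporter Abcc2 from 49.5 ± 7.08 to 16.2 ± 2.53. In R1W against UUO7, 1 of the 30 was higher and 4 were lower (6.47% and 8.04% of all genes). In R4W against sham, 14 were higher and 7 lower (54.8% and 11.6% of all genes), or 7 and 17 after rescaling (28.9% and 31.1%).

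Glutathione S-transferases moved in both directions, also within classes. The 20 Gst genes summed to 1849 ± 100 FPKM in sham, 2371 ± 98.2 in UUO2, 1805 ± 163 in UUO7, 1643 ± 77.2 in R1W, 1622 ± 116 in R2W and 1831 ± 103 in R4W (SD, n = 4 each). Every UUO2 library lay above the sham range of 1773 to 1997 FPKM, every R1W and R2W library below it, and UUO7 and R4W overlapped it. These sums are as deposited. Size factors averaged 0.81 in sham, 1.14 in UUO7 and 1.06 in R4W, so the overlap of UUO7 and R4W with sham depends on the scale. In UUO2 against sham, 8 Gst genes were higher and 6 lower (32.3% and 17.0% of all genes), with a median of 0.14. In UUO7, 9 were higher and 4 lower (60.1% and 17.8% of all genes), or 5 and 9 after rescaling (36.5% each way).

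In the alpha class, Gsta1 had the largest rise of any member in UUO2. Gsta1 (chr9:78230656-78242684, plus strand), an isoform that detoxifies products of lipid peroxidation, measured 0.17, 0.39, 0.23 and 0.30 FPKM in sham, 17.4, 24.6, 18.1 and 13.9 in UUO2, and 3.03, 1.73, 3.59 and 1.96 in UUO7. All 3 groups were separate, and R4W, at 0.34, 0, 0.70 and 0.33 FPKM, spread to both sides of sham, with a difference of 0.06 (limma adjusted p = 0.802). The differences from sham were 3.91 (SE 0.18, limma adjusted p = 1.08e-12) in UUO2 and 1.46 (SE 0.18, limma adjusted p = 3.25e-07) in UUO7. Of the 100-base stretches of Gsta1 transcripts, 81.8% also occur in other genes, 71.3% in the gene model Gm3776. That model measured 8.89, 14.9, 10.7 and 6.61 FPKM in UUO2 and 0 to 1.17 FPKM in all other libraries, so the value assigned to Gsta1 itself is uncertain.

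Gsta2, a close relative at far higher abundance (chr9:78331018-78355788, minus strand), measured 116, 166, 131 and 95.03 FPKM in sham, 434, 414, 514 and 459 in UUO2 and 231, 258, 289 and 188 in UUO7. All obstructed libraries lay above all sham libraries. Gsta2 rose by 1.86 (SE 0.19, limma adjusted p = 1.21e-07) in UUO2 and by 0.93 (limma adjusted p = 0.000121) in UUO7. In R1W it lay 0.77 below UUO7 (limma adjusted p = 0.0103), and it measured 137 ± 30.8 FPKM (SD, n = 4) in R4W. It shares 24.8% of its stretches with other genes.

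Gsta3 differed from both: it was at 71.9 ± 5.81 FPKM in sham, 89.5 ± 12.0 in UUO2 and 37.5 ± 4.37 in UUO7 (SD, n = 4 each). It was not called in UUO2 (limma adjusted p = 0.108, or 0.0422 with the 2 groups alone), fell by 0.92 in UUO7 (limma adjusted p = 1.40e-05), and was 0.83 above UUO7 in R4W (limma adjusted p = 0.000233). Gsta4, which conjugates 4-hydroxynonenal and was singled out after its values were seen, was lower in UUO2 only after rescaling (-0.41, adjusted p = 0.0238), was not called in UUO7 on either scale, and stood at 69.3, 39.7, 59.8 and 49.5 FPKM in R4W against 25.5, 36.6, 28.4 and 25.8 in sham. These groups did not overlap, and Gsta4 rose by 0.87 (limma adjusted p = 4.49e-05).

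Pi-class genes lie next to each other on chromosome 19 and behaved unequally. Gstp1 (chr19:4035407-4037921, minus strand), an abundant isoform that also binds stress kinases, measured 260, 281, 254 and 265 FPKM in sham, 531, 500, 494 and 544 in UUO2 and 331, 273, 371 and 277 in UUO7. UUO2 stood apart from both other groups, and UUO7 overlapped sham. Gstp1 rose by 0.96 in UUO2 and was 0.23 higher in UUO7 (SE 0.09, limma adjusted p = 0.0236), but -0.26 after rescaling, again called. The UUO7 call as deposited was lost without UUO7 1, UUO7 3 or sham 3, at adjusted p-values of 0.0696, 0.126 and 0.0593. Gstp3 (chr19:4057477-4059446, minus strand) measured 0.23, 0.29, 0.41 and 0.34 FPKM in sham, 16.0, 8.28, 17.1 and 15.3 in UUO2 and 6.38, 3.56, 6.99 and 5.19 in UUO7, with no overlap among the 3 groups. It rose by 3.48 (SE 0.23, limma adjusted p = 2.98e-10) and 2.28, and fell by 1.32 from UUO7 to R1W (limma adjusted p = 0.00146). The third gene, Gstp2, shared 42.2% of its stretches, mostly with Gstp1. It was not called in UUO2, and in UUO7 only after rescaling (-0.84, adjusted p = 0.00137).

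**Figure D4:**
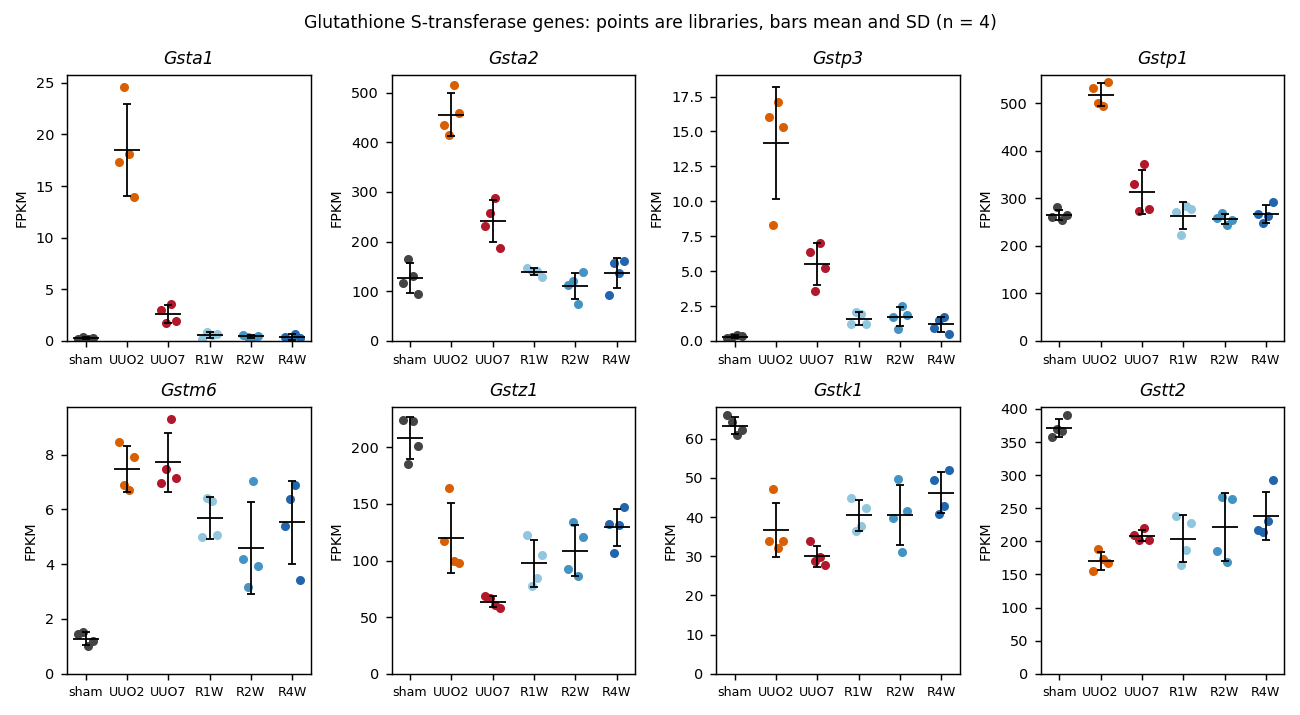
FPKM (vertical axis, linear from 0) of 8 glutathione S-transferase genes in the 6 groups, with points for libraries and bars for mean and SD (n = 4). Gsta1, Gsta2, Gstp3 and Gstp1 peak in UUO2, Gstm6 stays above sham throughout, and Gstz1, Gstk1 and Gstt2 are lower than sham in all 5 other groups.

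Mu-class genes share a cluster on chromosome 3. Gstm6 (chr3:107938847-107943749, minus strand) measured 1.44, 1.52, 1.00 and 1.18 FPKM in sham, 8.45, 6.88, 6.69 and 7.90 in UUO2, 6.97, 7.47, 9.31 and 7.16 in UUO7 and 5.41, 6.38, 6.89 and 3.43 in R4W. No library of these 3 groups reached down to sham. The differences were 1.89, 1.93 and 1.49 (SE 0.17 each), with limma adjusted p-values of 3.73e-08, 3.96e-09 and 4.43e-07. Gstm5, whose window holds the NRF2 core, rose by 0.71 in UUO2 (limma adjusted p = 1.73e-06), and its UUO7 difference was 0.32 as deposited and -0.17 after rescaling.

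The most abundant of the class, Gstm1, was at 313 ± 23.4 FPKM in sham and 457 ± 63.4 in UUO2 (SD, n = 4), 0.54 higher (limma adjusted p = 0.00102). It was not called in UUO7 (difference 0.24, limma adjusted p = 0.0767, or 0.0462 without UUO7 replicate 4). The log2 fold changes in the authors' deposited table have it lower in UUO7 (-0.56, adjusted p there 3.12e-09). In R1W it was -0.05 from sham as deposited (limma adjusted p = 0.702) and -0.50 after rescaling (limma adjusted p = 0.00208). Gstm2 measured 45.0, 116, 43.6 and 54.2 FPKM in sham, where replicate 2 stood far above the other three, and 26.4, 32.6, 26.2 and 38.5 in UUO2. All UUO2 libraries lay below sham, a fall by 0.94 (limma adjusted p = 0.00872) that is smaller without sham 2. The UUO7 difference from sham was 0.24 and not called (limma adjusted p = 0.433), but 0.56 without sham 2 (limma adjusted p = 0.0434). In R4W it measured 153, 81.3, 125 and 117 FPKM and overlapped sham through sham 2; the difference of 0.96 was called as deposited (limma adjusted p = 0.00538) and not after rescaling (0.59, adjusted p = 0.0564). Sham 2 also held the highest sham value of the urothelium marker sum, 95.1 FPKM where the lowest was 1.71, and the part of such tissue in Gstm2 was not tested.

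Omega-class Gsto1, an enzyme with reductase activity found in macrophages among other cells (chr19:47854970-47864790, plus strand), measured 22.2, 38.7, 23.9 and 25.8 FPKM in sham and 66.1, 70.3, 62.4 and 77.7 in UUO7. No UUO7 library overlapped sham, and R4W stayed at 60.3 ± 7.09 FPKM (SD, n = 4). Gsto1 rose by 1.32 (SE 0.17, limma adjusted p = 5.66e-07) in UUO7 and by 1.12 (limma adjusted p = 1.19e-05) in R4W. All 8 macrophage markers were higher in UUO7 on both scales (60.1% of all genes as deposited and 36.5% after rescaling). Their sum went from 49.7 to 83.7 FPKM in sham to 964 to 1155 FPKM in UUO7 and 705 to 1390 FPKM in R4W. Whether these cells account for Gsto1 was not tested.

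Gstz1, Gstk1 and Gstt2 were lower than sham in every other group. Gstz1, also known as maleylacetoacetate isomerase of tyrosine breakdown (chr12:87147165-87164723, plus strand), measured 224, 185, 223 and 201 FPKM in sham, 117, 164, 99.7 and 97.8 in UUO2 and 68.3, 67.3, 60.9 and 58.2 in UUO7. Recovery was partial, with 132, 107, 132 and 147 FPKM in R4W, above every UUO7 and below every sham library. Gstz1 fell by 0.82 in UUO2 and by 1.69 (SE 0.16, limma adjusted p = 1.03e-08) in UUO7, and was 1.01 above UUO7 in R4W (limma adjusted p = 7.50e-05). Kappa-class Gstk1, which sits in mitochondria and peroxisomes, went from 63.4 ± 2.26 FPKM in sham to 30.0 ± 2.67 in UUO7 and 46.3 ± 5.30 in R4W (SD, n = 4), falling by 1.06 (limma adjusted p = 1.28e-07) and 0.45 (limma adjusted p = 0.00318) from sham.

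Theta-class Gstt2 (chr10:75831114-75837424, minus strand) was the most abundant of all Gst genes in sham. It measured 357, 370, 367 and 391 FPKM there, 155, 188, 173 and 167 in UUO2, 210, 203, 220.5 and 202 in UUO7 and 217, 215, 230 and 292 in R4W. Sham stood apart from all 3. Gstt2 fell by 1.12 (SE 0.14, limma adjusted p = 1.27e-06) in UUO2 and was still 0.65 below sham in R4W (limma adjusted p = 0.000349), where it differed from UUO7 by 0.18 (limma adjusted p = 0.28). Its neighbours differed from it: Gstt1 was 0.19 higher in UUO7 as deposited (limma adjusted p = 0.0271), a call lost without UUO7 3, UUO7 4, sham 1 or sham 3 at adjusted p-values of 0.0541, 0.0563, 0.0929 and 0.0749, and -0.29 after rescaling. Gstt3 was lower in UUO2 by 0.53 (limma adjusted p = 0.00572) and was not called in R4W against sham (0.28, limma adjusted p = 0.11, or 0.045 without sham replicate 2 and 0.0463 in a fit without UUO2). Its UUO7 difference was -0.24 as deposited (limma adjusted p = 0.149) and -0.71 after rescaling (adjusted p = 0.000179).

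The summed level of the Ugt genes was below sham in every other group and lowest in UUO7. The 13 Ugt genes summed to 1405 ± 175 FPKM in sham, 791 ± 68.1 in UUO2, 394 ± 74.9 in UUO7, 637 ± 114 in R1W, 685 ± 209 in R2W and 796 ± 116 in R4W (SD, n = 4 each). No library of the 5 other groups reached the lowest sham sum of 1149 FPKM. Counts hid this: 6 Ugt genes were higher and 6 lower in UUO2 (32.3% and 17.0% of all genes), and 4 higher and 6 lower in UUO7 (60.1% and 17.8%), with the higher ones at low levels.

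Ugt3a1 and Ugt3a2, neighbours on chromosome 15 whose enzymes use sugars other than UDP-glucuronic acid, were the largest part. Ugt3a2 (chr15:9335550-9370955, plus strand) was the most abundant of all 48 members in sham at 546, 444, 557 and 505 FPKM, and measured 210, 271, 241 and 178 in UUO2, 125, 122, 87.2 and 80.2 in UUO7 and 276, 286, 302 and 357 in R4W. UUO2, UUO7 and R4W did not overlap sham, UUO7 was lowest, and R4W stood between UUO7 and sham. Ugt3a2 fell by 1.20 (SE 0.21, limma adjusted p = 9.15e-05) in UUO2 and fell by 2.32 (limma adjusted p = 4.42e-09) in UUO7, then rose by 1.02 from UUO7 to R1W (limma adjusted p = 0.00414) and lay 1.57 above UUO7 in R4W (limma adjusted p = 1.44e-05). It remained 0.75 below sham (limma adjusted p = 0.00405).

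Ugt3a1 (chr15:9276888-9315032, plus strand) went from 199, 150, 198 and 172 FPKM in sham to 38.3, 85.2, 46.2 and 31.3 in UUO2 and 35.9, 42.1, 26.8 and 25.6 in UUO7. Most of its fall was present at 2 days, when UUO2 overlapped UUO7 and replicate 2 was the highest. The difference from sham was -1.91 in UUO2 and -2.45 (SE 0.28, limma adjusted p = 7.56e-08) in UUO7. Its rise of 1.02 from UUO7 to R1W (limma adjusted p = 0.0184) was lost without R1W 1, R1W 4, UUO7 3 or UUO7 4, at adjusted p-values of 0.0651, 0.0633, 0.0564 and 0.0587. The rise of 1.65 from UUO7 to R4W was called with a limma adjusted p of 8.37e-05.

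Ugt2b38, of the family that conjugates steroids and many drugs (chr5:87409942-87424203, minus strand), measured 460, 324, 496 and 503 FPKM in sham, 301, 274, 287 and 294 in UUO2, 114, 146, 103 and 77.2 in UUO7 and 152, 167, 232 and 241 in R4W. All 3 groups lay below sham, and UUO7 below both others. It fell by 2.03 (SE 0.22, limma adjusted p = 4.77e-08) in UUO7 and was 1.17 below sham in R4W (limma adjusted p = 0.000111). Its smaller fall by 0.60 in UUO2 (limma adjusted p = 0.028) was lost without UUO2 2, UUO2 3, sham 1, sham 3 or sham 4, at adjusted p-values of 0.0524, 0.0531, 0.0595, 0.0744 and 0.0765. Of its 100-base stretches, 24.2% also occur in Ugt2b5, which ran the other way at low level, from 2.69 ± 0.769 FPKM in sham to 5.85 ± 0.323 in UUO7 (SD, n = 4), a rise of 0.92 (limma adjusted p = 2.41e-05). Ugt2b37, at 55.3 ± 14.4 FPKM in sham and 59.8 ± 13.0 in UUO7 (SD, n = 4), was not called in any comparison with sham.

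The 7 Ugt1a genes are made from 1 locus on chromosome 1 by joining alternative first exons to shared later exons. They therefore share 52.3% to 95.7% of their 100-base stretches with other genes, and how the counting divided reads among them limits each value. In UUO2 against sham, 4 were higher and 3 lower (32.3% and 17.0% of all genes). Ugt1a7c (chr1:88095062-88220002, plus strand), the main isoform, measured 176, 147, 181 and 159 FPKM in sham, 90.8, 121, 105 and 67.0 in UUO2, 37.6, 42.6, 21.7 and 34.3 in UUO7 and 75.4, 79.5, 98.8 and 106 in R4W. No library of these 3 groups reached sham.

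Ugt1a7c fell by 0.81 in UUO2 (limma adjusted p = 0.0178; 0.0742 without UUO2 4) and by 2.29 (SE 0.27, limma adjusted p = 1.66e-07) in UUO7. R1W, at 42.7 ± 15.9 FPKM (SD, n = 4), differed from UUO7 by 0.27 (limma adjusted p = 0.532), a comparison in which Ugt3a2 was called higher. R4W was 1.13 above R1W (limma adjusted p = 0.00989, or 0.0545 without R1W 3). The difference between the 2 genes' courses was not tested. Ugt1a6b fell from 12.0, 10.3, 10.3 and 10.3 FPKM in sham to 1.19, 1.11, 2.39 and 0 FPKM in UUO7, by 2.56 (limma adjusted p = 2.29e-07).

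Ugt1a6a (chr1:88134809-88218997, plus strand), which shares 95.7% of its stretches, measured 20.0, 24.9, 14.6 and 18.6 FPKM in sham, 9.79, 18.4, 8.88 and 11.45 in UUO2, 16.1, 18.1, 20.2 and 20.1 in UUO7 and 31.3, 32.0, 24.8 and 26.1 in R4W. R4W lay above every UUO7 library and overlapped sham through sham 2. Ugt1a6a fell by 0.67 in UUO2 (SE 0.19, limma adjusted p = 0.00696) and was not called in UUO7 as deposited (-0.05), but was after rescaling (-0.51, adjusted p = 0.0288). In R4W it was 0.54 higher than sham (limma adjusted p = 0.0192), a call lost after rescaling (0.18, adjusted p = 0.460), without R4W 2 (0.0550) and without sham 3 (0.0802). It was 0.59 above UUO7 in R4W (limma adjusted p = 0.0169; 0.0517 without UUO7 1).

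Ugt1a10, whose window holds the HNF1 letters shown above, moved in the opposite direction. It measured 3.40, 4.35, 2.08 and 3.25 FPKM in sham, 24.6, 24.1, 20.9 and 26.3 in UUO2 and 13.5, 10.5, 20.4 and 7.50 in UUO7. Both obstruction groups lay above sham. Ugt1a10 rose by 2.57 (SE 0.29, limma adjusted p = 5.27e-07) in UUO2 and by 1.65 (limma adjusted p = 2.64e-05) in UUO7, and lay 1.07 below UUO7 in R4W (limma adjusted p = 0.005). Ugt1a9 was listed at 0 in all sham libraries, at 1.25 to 4.62 FPKM in UUO2 and at 0, 0.98, 22.0 and 0 FPKM in R1W, where replicate 3 alone was high. Its UUO2 call (limma adjusted p = 0.0384) was lost when any 1 of 7 libraries was left out, the exception being UUO2 2, with adjusted p-values between 0.0543 and 0.117.

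**Figure D5:**
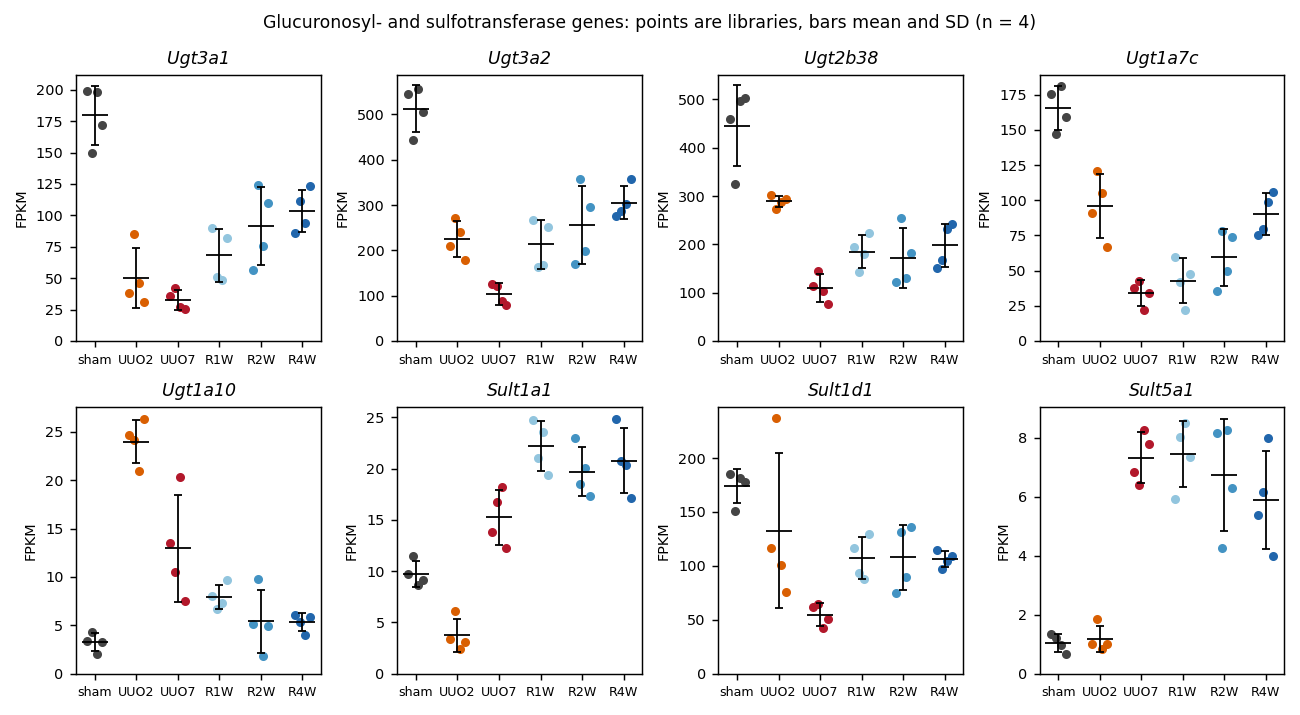
FPKM (vertical axis, linear from 0) of 5 Ugt and 3 sulfotransferase genes in the 6 groups, with points for libraries and bars for mean and SD (n = 4). Ugt3a1, Ugt3a2, Ugt2b38 and Ugt1a7c are lowest in UUO7 and below sham in R4W, Ugt1a10 peaks in UUO2, and Sult5a1 stays above sham from UUO7 on.

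In UUO7, 4 of the 7 Sult genes were higher and 2 lower than sham (60.1% and 17.8% of all genes), or 3 and 3 after rescaling (36.5% each way). In R4W, 4 were higher and 3 lower (54.8% and 11.6% of all genes). Sult1d1, a catecholamine and phenol sulfotransferase (chr5:87554645-87569027, minus strand) whose window holds the HNF1 letters, measured 186, 151, 182 and 178 FPKM in sham, 117, 237, 101 and 75.9 in UUO2 and 61.9, 64.7, 42.1 and 50.5 in UUO7. UUO2 replicate 2 was above every sham library and the other three were below. The UUO2 difference of -0.52 was not called (limma adjusted p = 0.086; 0.0477 after rescaling), and without UUO2 replicate 2 it was -0.84 (adjusted p = 0.00105). Sult1d1 fell by 1.67 (SE 0.25, limma adjusted p = 3.11e-06) in UUO7, and R4W, at 107 ± 7.44 FPKM (SD, n = 4), lay 0.96 above UUO7 (limma adjusted p = 0.00321) and 0.70 below sham (limma adjusted p = 0.0167).

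Sult1a1, the main phenol sulfotransferase (chr7:126672865-126676432, minus strand), changed direction between 2 and 7 days. It measured 9.73, 11.45, 8.62 and 9.09 FPKM in sham, 3.38, 6.10, 2.38 and 3.14 in UUO2, 13.8, 16.7, 18.2 and 12.3 in UUO7 and 24.7, 21.0, 23.6 and 19.3 in R1W. The 4 groups did not overlap. It fell by 1.22 (SE 0.17, limma adjusted p = 6.28e-06) in UUO2 and was 1.81 higher in UUO7 than in UUO2 (limma adjusted p = 1.71e-08). The UUO7 difference from sham was 0.59 as deposited (limma adjusted p = 0.00347) and 0.14 after rescaling (adjusted p = 0.465), while R4W lay 1.02 above sham (limma adjusted p = 3.29e-05) and 0.67 after rescaling.

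Sult5a1, a little-studied member (chr8:123140192-123158315, minus strand), measured 1.36, 1.20, 0.97 and 0.67 FPKM in sham, 1.02, 1.84, 0.84 and 1.00 in UUO2, 6.84, 6.38, 8.27 and 7.78 in UUO7 and 5.39, 6.16, 7.97 and 3.99 in R4W. UUO2 overlapped sham, and UUO7 and R4W lay above both. The differences from sham were 0.08 in UUO2 (limma adjusted p = 0.764), 2.03 (SE 0.19, limma adjusted p = 4.93e-09) in UUO7 and 1.73 (limma adjusted p = 1.48e-07) in R4W. Sult4a1, known from brain, rose by 2.44 (limma adjusted p = 1.03e-10) from 0.01 to 0.07 FPKM in sham to 4.18 to 5.48 FPKM in UUO7, and R4W, at 1.45 ± 0.288 FPKM (SD, n = 4), lay 1.22 below UUO7 (limma adjusted p = 1.43e-05). Sult2b1, a cholesterol sulfotransferase of skin, rose by 1.69 (limma adjusted p = 4.33e-07) to 5.61 ± 1.23 FPKM in UUO7. Sult1c2, at 28.3 ± 0.915 FPKM in sham, was not called in UUO2 on either scale. In UUO7 it differed from sham by -0.20 as deposited (limma adjusted p = 0.0613, or 0.0373 with the 2 groups alone and 0.0165 without UUO7 replicate 3) and by -0.67 after rescaling (adjusted p = 2.58e-05), and in R4W it was 0.33 lower as deposited (limma adjusted p = 0.00474). Sult1b1, the other gene lower in UUO7, fell there by 0.35 (limma adjusted p = 0.0122) and was also lower in R2W and R4W.

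The cofactors of conjugation also have their own supply genes, taken from a list of 10. In UUO7 against sham, 8 of the 10 were lower and 2 higher (17.8% and 60.1% of all genes), with a median of -0.44, or 8 and 0 after rescaling (36.5% each way). In UUO2, 5 were lower (17.0% of all genes) and none of the 10 was higher by limma. Papss2, which makes the sulfate donor PAPS, fell from 75.1 ± 6.29 to 22.8 ± 0.720 FPKM (SD, n = 4), Bpnt1, which clears its product, from 147 ± 12.0 to 44.8 ± 3.36, and Gss, the second enzyme of glutathione synthesis, from 278 ± 27.6 to 158 ± 18.8. Ugdh, which makes UDP-glucuronic acid, fell from 39.7 ± 2.97 to 32.3 ± 2.85 FPKM. In R4W against sham, 4 of the 10 were lower and 2 higher (11.6% and 54.8% of all genes), or 8 and 0 after rescaling (31.1% and 28.9%).

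Phase II enzymes outside the 3 families moved mainly downward. Of 15 listed methyltransferases, acetyltransferases and glycine-conjugation genes, 13 have a row. In UUO7 against sham, 10 were lower and 1 higher (17.8% and 60.1% of all genes), with a median of -1.43 beside 0.42. Inmt, an indole and amine methyltransferase, fell from 1077 ± 121 FPKM in sham to 34.9 ± 4.40 in UUO2 and stood at 653 ± 106 in R4W (SD, n = 4), and Acsm3, a medium-chain acyl-CoA synthetase, fell from 547 ± 165 to 56.9 ± 9.55 in UUO7. The gene that rose in UUO7 was Nnmt, the nicotinamide methyltransferase, at 11.1 ± 0.751 against 0.700 ± 0.638 FPKM. In R1W against UUO7, 8 of the 13 were higher and 1 lower (6.47% and 8.04% of all genes).

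Marker sums of several cell types also changed between the groups. The 10 proximal tubule markers summed to 5610 to 6686 FPKM in sham, 2092 to 3544 in UUO2, 1260 to 1603 in UUO7, 1905 to 3205 in R1W and 3070 to 4224 in R4W. All 10 were lower in UUO7 than in sham (17.8% of all genes), and all 10 were higher in R4W than in UUO7 (17.6%). The 8 markers of distal convoluted tubule and collecting duct also fell, from 787 to 1202 FPKM in sham to 274 to 350 in UUO7, and summed to 810 to 1293 in R4W. The 5 thick ascending limb markers summed to 2304 to 2565 FPKM in sham, 1134 to 1454 in UUO7 and 1759 to 2616 in R4W. The means of the Ugt sum, Gstz1, Sult1d1 and Gclm were also lowest in UUO7 and intermediate in R4W. The Gclm call in R4W against UUO7 was lost without any 1 R4W library or without UUO7 2, 3 or 4, at limma adjusted p-values of 0.0577 to 0.137. In UUO2, Gclm was at 248 FPKM against 243 in sham, a difference that was not called, and the proximal sum was lower than in sham. Gclc, at 69.3 FPKM in UUO7 and 63.7 in R4W, was not called between these groups (limma adjusted p = 0.649). The 7 injured tubule markers summed to 400.0 to 776 FPKM in sham, 15673 to 26633 in UUO2, 16542 to 19223 in UUO7 and 2158 to 3211 in R4W. Sums of the fibroblast, endothelium and lymphocyte markers lay above sham in UUO7. For fibroblasts they went from 33.1 to 77.4 FPKM in sham to 651 to 828 in UUO7. The part of tubule cell number in any of these results was not tested.

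The authors' deposited table gives log2 fold changes and adjusted p-values for the same comparisons. In UUO7 against sham, the authors' deposited table called 15 members higher and 25 lower, beside 35.8% and 37.9% of all genes with an adjusted p-value in it. Of those calls, 31 had the same direction in the values as deposited and 38 after rescaling, and 2, Gstp1 and Gstt1, were opposite to the values as deposited. For R4W against sham the authors' deposited table called 9 higher and 24 lower (30.9% and 34.8% of such genes), of which 23 were called the same way as deposited and 31 after rescaling. For R1W against sham the authors' deposited table called 10 higher and 25 lower (31.9% and 34.0% of such genes), of which 26 had the same direction as deposited and 34 after rescaling, and 2, Gstm4 and Keap1, were opposite to the values as deposited. For R2W the authors' deposited table called 8 higher and 26 lower (30.7% and 35.4% of such genes), of which 24 and 32 had the same direction. In the other 7 comparisons no call of the authors' deposited table was opposite.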

How the data were processed

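Bulk RNA-seq of 24 kidneys, 4 in each of 6 groups, was taken from 1 table deposited by the authors, with 14785 genes. Its expression columns were taken as FPKM, inferred from the deposited values. The authors' log2 fold changes and adjusted p-values stand in the same deposited table for each comparison. The submitters' processing notes name FastQC, RSEM, Bowtie2, DESeq2 and the build mm10, with no roles; filters are not given in the sources used here, and the smallest mean in the table was 1 FPKM. Depth was inferred from steps in the low values, and no library's values equalled another's.

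Values were tested as log2(FPKM + 1) with limma 3.58.1 in R 4.3.3 (lmFit and eBayes with a mean trend, 1 coefficient per group over all 24 libraries), with Benjamini-Hochberg adjustment over 14785 genes and a threshold of 0.05. Tables and figures used Python 3.11.15, pandas 2.3.3, numpy 2.4.6, scipy 1.17.1 and matplotlib 3.10.9. On simulated data for UUO7 against sham (14785 genes), 186 of 200 genes changed by 1 on the log2 scale were called, and 8 unchanged genes. The simulation used independent noise, changed genes evenly up and down and had no shift between libraries. It therefore does not cover calls that depend on the scaling. Groups came from sample titles.

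Members given in full were the 9 named singly (8 with a row), those of highest mean in each family (12 Gst, 6 Ugt, 6 Sult), and, per comparison, up to 3 rises and 3 falls of greatest size among called members whose libraries did not overlap. Members, gene lists and motifs were chosen with earlier results of these data known, and the listed genes outside the members were named after their values were seen. Alternatives were other scalings, pseudocounts, filters, call rules, sets of libraries, the grouping of R4W replicate 2, and a replicate block.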

Additional observations from a re-analysis of the deposited data

Results flagged for a closer look

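Single libraries stood far from the other 3 of their group for 13 values, by Dixon's criterion at the 95% level, among 234 groups of 4 over 39 members; chance alone gives about 11.7. They fell in 9 libraries. Sham replicate 2 held 3 of them: Gstm2 at 116.24 FPKM where the other three were at 43.58 to 54.24, Keap1 at 19.47 where they were at 17.37 to 17.69, and Ugt2b37 at 33.9 where they were at 61.15 to 64.29. UUO2 replicate 2 held Gstk1 at 47.09 FPKM (others 31.98 to 33.99) and Gstt3 at 39.24 (others 21.96 to 23.41). R1W replicate 3 held Gstm5 at 191.53 FPKM (others 143.56 to 144.67) and Ugt1a9 at 21.99 (others 0 to 0.98).

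The other 6 were spread over as many libraries. Gclm was at 167.68 FPKM in R4W replicate 2 (others 156.56 to 157.22), the library whose labels disagree. Gstm2 was at 149.38 FPKM in R2W replicate 1 (others 64.84 to 75.98), and Gstm5 at 137.98 in R4W replicate 3 (others 116.34 to 118.5). Ugt1a6b was at 11.98 FPKM in sham replicate 1 (others 10.3 to 10.31). Ugt1a9 was at 7.46 FPKM in UUO7 replicate 1 (others 1.52 to 2.11) and at 0.44 in R4W replicate 4, where the others were listed at 0.

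For 2 members the difference from sham was called in opposite directions after 2 and 7 days of obstruction. Sult1a1 was lower at 2 days (-1.22) and higher at 7 days (0.59 as deposited, 0.14 and not called after rescaling), a difference of 1.81 between UUO7 and UUO2. Ugt2b34 was higher at 2 days (0.72) and lower at 7 days (-0.44), a difference of -1.15. Both comparisons share the sham animals, and the UUO2 libraries differ from the rest in depth, so batch and group cannot be told apart.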

How the results depend on the processing

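Members called changed with the call rule and the filter. With an absolute log2 difference of at least 1 the counts were 14 in UUO2, 20 in UUO7, 13 in R1W, 11 in R2W and 8 in R4W against sham. They were 15 between UUO7 and UUO2, 5 for R1W and 11 for R4W against UUO7, and 1 for R4W against R1W. With genes averaging 10 FPKM or more they were 21 in UUO2, 24 in UUO7, 20 in R1W and 17 in R2W against sham, fewer members being tested. At an adjusted p under 0.01 they were 5 in R1W against UUO7 and 4 in R4W against R1W, and 2 in the latter with its own groups alone; the cause was not tested. Among called differences of members given in full, rescaling changed the sign in UUO7 against sham for Gstm5 (-0.17), Gstp1 (-0.26), Gstt1 (-0.29) and Keap1 (-0.080). It did so in R1W for Gstm5 (-0.20), Gstt1 (-0.20) and Keap1 (-0.17), in R2W for Keap1 (-0.099), in R4W for Gstm1 (-0.075) and Keap1 (-0.072), and between UUO7 and UUO2 for Keap1 (-0.010). It also gave calls of the other sign to differences not called as deposited: Srxn1 in R1W (-0.42), Gstm1 (-0.37), Gstt1 (-0.24) and Srxn1 (-0.26) in R2W, Gstp1 in R4W (-0.36), and Gstt1 between UUO7 and UUO2 (-0.34). For the 214 called differences of members given in full, not of all 48 members, alternatives other than leaving out 1 library gave 2026 values, of which 1782 kept direction and call, 233 lost the call and 11 changed direction; differences not called as deposited are not in these counts.

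Leaving out 1 library at a time gave 28 to 33 called members in UUO2, 34 to 38 in UUO7, 28 to 34 in R1W, 24 to 29 in R2W and 23 to 29 in R4W against sham. It gave 33 to 38 between UUO7 and UUO2, 6 to 15 in R1W against UUO7, 25 to 28 in R4W against UUO7 and 4 to 12 in R4W against R1W. Replicate numbers did not pair the animals: the mean correlation of same-numbered libraries was between -0.17 and 0.15, and in no comparison were all 4 pairs over 0.1. With the replicate number as a block, the comparisons with sham called 33 members in UUO2, 37 in UUO7, 30 in R1W and 27 in R2W and R4W alike. The block gave 37 between UUO7 and UUO2, 13 and 28 in R1W and R4W against UUO7, and 10 in R4W against R1W.

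Values below 1 FPKM, such as those of Sult4a1 and Gsta1 in sham, rest on few fragments and their log2 differences depend on the pseudocount. Ugt1a values depend on how reads were divided within 1 locus.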

Other observations

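Glutathione conjugates are processed further by enzymes outside the families above. Of 10 microsomal glutathione transferase and glutathione breakdown genes, 3 were higher and 6 lower in UUO7 than in sham (60.1% and 17.8% of all genes), and 3 higher and 5 lower in R4W (54.8% and 11.6%). Mgst1, a membrane-bound glutathione transferase, rose from 61.5 ± 10.6 FPKM in sham to 250.5 ± 18.1 in UUO2 and 190 ± 24.9 in UUO7 (SD, n = 4), by 2.02 and 1.61 on the log2 scale. Genes of the mercapturate route that fell included Ggt1, which removes glutamate from glutathione conjugates, from 1008 ± 86.2 to 412 ± 78.9 FPKM in UUO7, Dpep1, a dipeptidase, from 69.5 ± 4.84 to 24.3 ± 2.51, and Acy3, an aminoacylase, from 1852 ± 196 to 433 ± 70.2. Ggt5, a relative of Ggt1, went the other way, from 1.495 ± 0.451 to 8.79 ± 0.681 FPKM. Chac1, which degrades cytosolic glutathione, rose in UUO2, to 9.79 ± 4.42 from 1.81 ± 0.955 FPKM, and was not called in UUO7.

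Genes that hydrolyse conjugates numbered 3 with a row. Arsb, a lysosomal sulfatase, fell from 49.3 ± 4.61 FPKM in sham to 13.0 ± 2.01 in UUO7 (SD, n = 4), by 1.85 on the log2 scale, while Arsa, another lysosomal sulfatase, rose from 4.93 ± 1.26 to 13.2 ± 1.19, by 1.27. Gusb, the lysosomal beta-glucuronidase, was 0.47 higher in UUO7 as deposited and 0.01 after rescaling, where it was not called.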
